A study of Homo sapiens with 3 samples.

Results

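The HOX genes of the 4 human clusters were examined in 2 neuroblastoma cell lines and a reference pool, each measured on 1 expression array. The list held 38 HOX genes, and a gene was measured where a probe set, the group of short probes that reads out a transcript, named that gene and no other. This left 28 HOX genes with 44 probe sets, among 19775 genes in all. The measured genes were HOXA2 alone of the HOXA cluster, 10 genes of HOXB, 9 of HOXC and 8 of HOXD. For the other 10 listed genes, which were HOXA3, HOXA4, HOXA5, HOXA6, HOXA7, HOXA9, HOXA10, HOXA11, HOXA13 and HOXD3, no value of their own was analysed here.

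IMR-32 and NGP are established lines from neuroblastoma, a childhood tumour of the sympathetic nervous system, and both were untreated and kept in their usual culture medium. The study asked how DNA copy number changes in these lines affect expression, and it set both against the same reference, mRNA pooled from 16 cancer cell lines of mixed type and likewise untreated. Each line is a single culture with MYCN amplified, and MEIS1, which encodes a HOX cofactor, lies in an amplified region of IMR-32 according to the study. Since each sample was hybridized to 1 array, no difference was checked in replicates, no p-value is given, and the number of arrays limits the precision.

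HOX genes encode homeodomain transcription factors that give cells their position along the body axis. In each cluster the genes lie in the order in which they are used from head to tail, so that anterior genes sit at one end and posterior genes at the other. The HOX proteins bind DNA together with cofactors of the PBX and MEIS families. The sympathetic nervous system arises from the trunk neural crest, and many tumours keep part of the HOX pattern of their tissue of origin.

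The values are MAS5 signals, an array brightness on a linear scale, in which each array was scaled to a trimmed mean of 500. The levels used to judge brightness were 89.7 in IMR-32, 98.6 in NGP and 119 in the pool, these being the median over all probe sets of each array. A gene is called bright here where its highest probe set was at or above that median, and dim otherwise. The expression ratio is the log2 ratio of 2 arrays. A gene with several probe sets was given the median of their ratios. A gene was overexpressed or underexpressed where its ratio lay within the top or bottom 7% of all genes, a rule taken from the methods of the work behind the arrays. These cut-offs lay at 1.68 and -2.83 for IMR-32 over the pool, at 1.84 and -2.88 for NGP over the pool, and at 1.95 and -1.84 for NGP over IMR-32. The median ratio over all genes was -0.23, -0.22 and 0.02 in these comparisons, and ratios over the pool have to be read against that shift. The only error that can be given is the spread between probe sets of one gene, with a standard deviation of 1.31, 1.41 and 1.28 over 10523 genes. It does not measure variation between cultures or arrays.

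RefSeq promoter windows of 250 bases before the transcript start (GRCh38.p14) were found for 11 of the measured HOX genes. They are shown for HOXC4 and HOXC5, which share a window and were both higher in NGP, and for HOXD10 and HOXD13, which passed the cut-off between the lines. HOXD8, bright in all arrays, stands beside them. Capitals mark the CCAAT box and the TATA box (TATAAA) on either strand. The first window, chr12:54016638-54016887, belongs to HOXC4 and HOXC5 alike, which RefSeq starts at the same position. The others are chr2:176129455-176129704 for HOXD8, chr2:176116528-176116777 for HOXD10 and chr2:176092471-176092720 for HOXD13, all on the plus strand.
HOXC4 and HOXC5: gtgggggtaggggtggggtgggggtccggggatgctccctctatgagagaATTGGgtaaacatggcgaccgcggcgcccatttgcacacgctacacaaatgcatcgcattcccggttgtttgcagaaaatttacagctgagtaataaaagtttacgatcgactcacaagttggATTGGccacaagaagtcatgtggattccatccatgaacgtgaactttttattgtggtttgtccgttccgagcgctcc
HOXD8: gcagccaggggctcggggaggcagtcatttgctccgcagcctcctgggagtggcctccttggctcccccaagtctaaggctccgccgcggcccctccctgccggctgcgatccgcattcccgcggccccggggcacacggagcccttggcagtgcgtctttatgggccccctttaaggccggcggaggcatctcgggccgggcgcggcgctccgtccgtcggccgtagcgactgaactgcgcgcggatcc
HOXD10: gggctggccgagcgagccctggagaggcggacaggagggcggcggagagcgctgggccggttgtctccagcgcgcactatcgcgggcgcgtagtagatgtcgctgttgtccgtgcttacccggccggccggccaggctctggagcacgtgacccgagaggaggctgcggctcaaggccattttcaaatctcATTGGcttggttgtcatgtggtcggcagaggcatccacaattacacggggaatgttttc
HOXD13: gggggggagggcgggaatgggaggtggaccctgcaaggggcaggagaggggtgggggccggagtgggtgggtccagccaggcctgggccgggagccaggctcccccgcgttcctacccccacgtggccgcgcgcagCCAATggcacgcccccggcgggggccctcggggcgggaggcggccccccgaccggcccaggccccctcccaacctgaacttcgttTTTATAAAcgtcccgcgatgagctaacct
The window of HOXC4 and HOXC5 held 2 CCAAT boxes, that of HOXD10 held 1, and that of HOXD13 held 1 together with a TATA box that reads as TATAAA on both strands. The window of HOXD8 held none of the motifs searched. Its 28 CpG dinucleotides were the most of the windows shown, against 23 in HOXD10, 21 in HOXD13 and 14 in HOXC4 and HOXC5, and against a median of 11 over 34788 promoter windows of the same length. Of the 10 different HOX windows, 8 held CCAAT (32% of all windows), 1 held TATAAA (10.8%), 3 held the HOX-PBX motif TGATNNAT (6.49%) and 1 held the MEIS motif TGACAG (13%), each searched on both strands. A match is a description of letters, not a binding site.

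Most HOX genes were bright in at least 1 array, but fewer were bright in either neuroblastoma line than in the pool. In IMR-32, 12 of the 28 HOX genes were bright (42.9%, against 61.7% of all genes), in NGP 14 (50%, against 61.2%) and in the pool 17 (60.7%, against 66.5%). In 1 or more arrays 21 were bright, or 75% against 74.4% of all genes. The 7 genes bright in all 3 arrays were HOXB3, HOXB5, HOXC4, HOXC6, HOXC11, HOXD4 and HOXD8, or 25% against 52.6% of all genes. The pool alone had bright signals for HOXB2, HOXB6, HOXB13, HOXC10 and HOXC13, or 17.9% against 6.83% of all genes. HOXD10 was the only member bright in NGP alone, and no member was bright in IMR-32 alone.

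**Figure D1:**
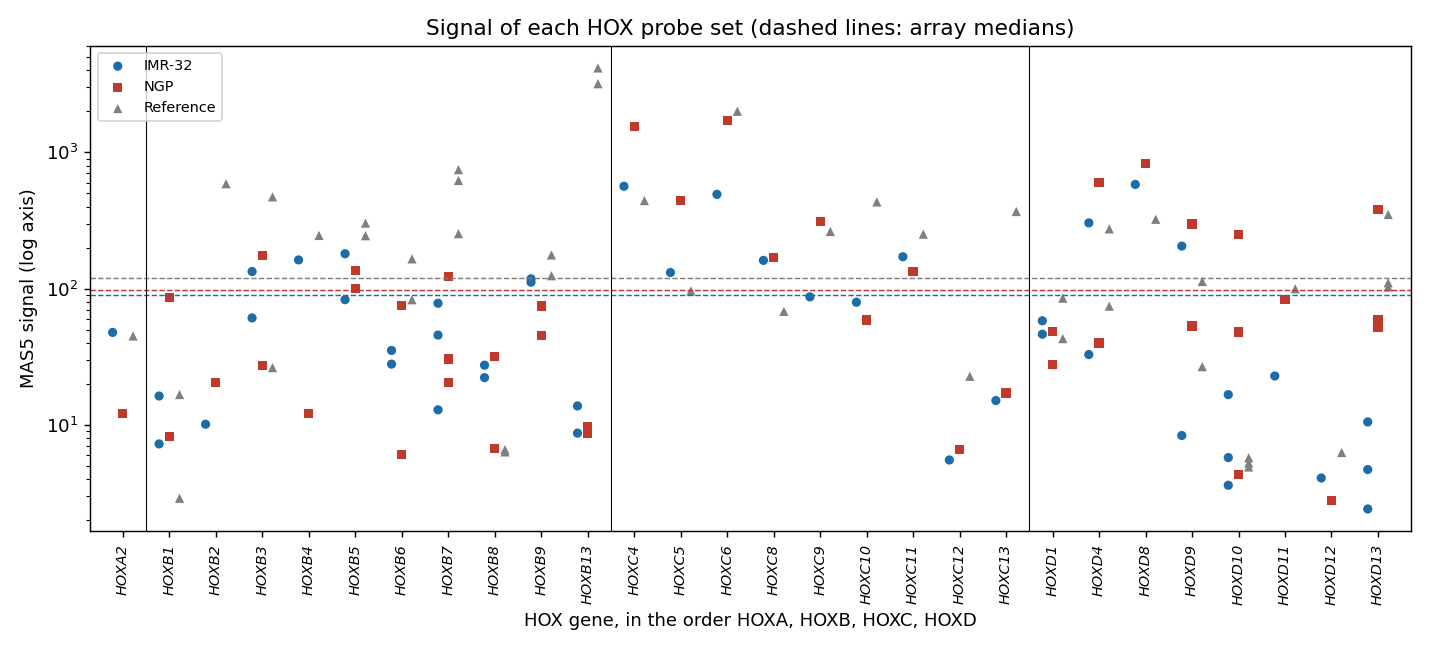
MAS5 signal (log axis) of every probe set of each measured HOX gene, in cluster order, in IMR-32, NGP and the Reference pool, 1 array each. Dashed lines mark the array medians. The highest signal of HOXB13 is 4161 in the pool, 13.8 in IMR-32 and 9.73 in NGP. HOXC4, HOXC6 and HOXD8 are bright in all 3 arrays.

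The clusters differed in where their bright genes lay. Of 10 HOXB genes, 8 were bright in the pool, 4 in IMR-32 and 3 in NGP. Of 9 HOXC genes, 6 were bright in the pool, 5 in IMR-32 and 6 in NGP. Of 8 HOXD genes, 3 were bright in the pool, 3 in IMR-32 and 5 in NGP. By position in the clusters, the 11 central genes (paralogue groups 4 to 8) had 8 bright members in each array. The 12 posterior genes (groups 9 to 13) had 3 in IMR-32, 5 in NGP and 7 in the pool, and the 5 anterior genes (groups 1 to 3) had 1, 1 and 2. No test exists for these differences.

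The 7 HOX genes that were dim in every array were HOXA2, HOXB1, HOXB8, HOXC12, HOXD1, HOXD11 and HOXD12. Their 10 probe sets lay between 4.08 and 58.1 in IMR-32, between 2.80 and 85.9 in NGP and between 2.90 and 99.9 in the pool. Ratios between such signals rest on dim values alone, and 3 of them passed a cut-off. HOXB8 in IMR-32 over the pool (1.93), HOXB1 in NGP over the pool (1.93) and HOXA2 in NGP over IMR-32 (-1.98) are therefore counted but not described further.

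Against the pool, IMR-32 had 5 underexpressed and 1 overexpressed HOX gene of 28, where the cut-off places 7% of all genes at each end. The underexpressed genes were HOXB2, HOXB7, HOXB13, HOXC13 and HOXD13, and all 5 were bright in the pool. The overexpressed gene was the dim HOXB8. The median ratio of the 28 genes was -0.57, and 8 of them had a ratio above 0 (41.6% of all genes did). No bright HOX gene passed the upper cut-off in IMR-32.

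NGP had 5 underexpressed and 3 overexpressed HOX genes against the same pool, again with 7% of all genes at each end. The underexpressed genes were HOXB2, HOXB4, HOXB7, HOXB13 and HOXC13, and the overexpressed were HOXC5, HOXD10 and the dim HOXB1. The median ratio was -0.77, and 10 genes lay above 0 (42.3% of all genes). Underexpression in both lines was found for 4 genes, HOXB2, HOXB7, HOXB13 and HOXC13. Since both comparisons share the pool array, that overlap is a count and no independent observation. The share of all genes underexpressed in both lines was not counted, so the overlap cannot be set against it.

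**Figure D2:**
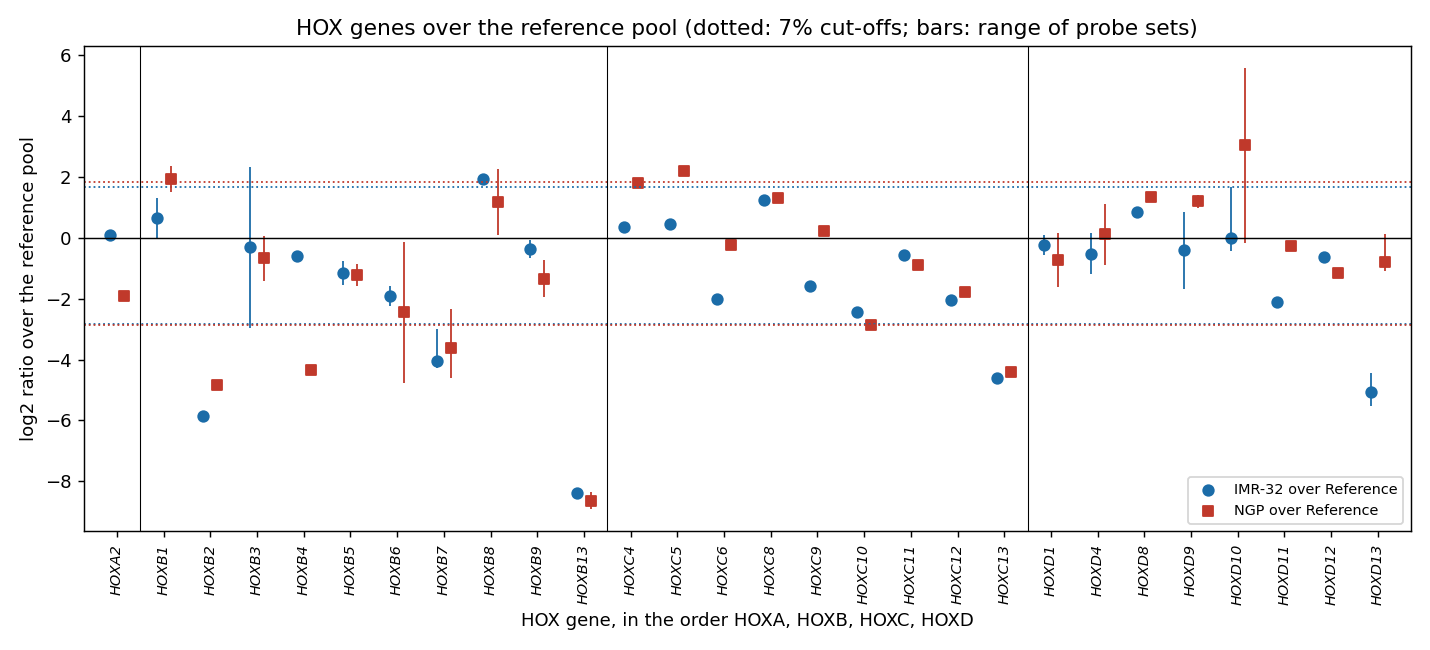
Log2 expression ratio of each measured HOX gene in IMR-32 and NGP over the Reference pool, in cluster order. Dotted lines mark the 7% cut-offs of each line, and bars the range of the probe sets of a gene. HOXB13 lies lowest in both lines (-8.38 and -8.63), and HOXD10 in NGP lies highest (3.06).

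In the HOXB cluster most genes lay below the pool. Over its 10 measured genes the median ratio was -0.87 in IMR-32 and -1.90 in NGP, and 8 of them were below 0 in each line, although HOXB3 in IMR-32 came to 0.02 after quantile normalization. The others, HOXB1 and HOXB8, were dim in every array. By cluster, the median over the pool was -1.59 for HOXC and -0.46 for HOXD in IMR-32, and -0.23 and -0.08 in NGP. All 8 bright HOXB genes were bright in the pool, and HOXB2, HOXB6 and HOXB13 counted as bright through the pool alone. The markers of epithelial cells in the pool moved with them: all 5 of EPCAM, CDH1, KRT8, KRT18 and KRT19 were underexpressed in both lines, with a median of -7.45 in IMR-32 and -7.80 in NGP. Their summed signal was 367 in IMR-32, 283 in NGP and 49145 in the pool, all 5 were bright in the pool and 2 in each line, and their part in the HOX ratios was not tested. The pool mixes 16 lines, so that fewer cells expressing a gene and less RNA per cell cannot be told apart in its signals.

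HOXB13 is the most posterior gene of its cluster and is known as a marker of prostate and distal gut epithelium. Its probe sets gave signals of 8.71 and 13.8 in IMR-32, 9.73 and 8.65 in NGP, and 3191 and 4161 in the pool. It was thus far above the median in the pool and far below it in both lines, with ratios of -8.38 in IMR-32 and -8.63 in NGP. Since both lines were dim, the size of these ratios depends on dim signals. With dim signals raised to the array median they were -5.34 and -5.21, still past the cut-offs of that setting. PRAC1, a small gene next to HOXB13 that is also known from prostate and distal gut, had a like pattern, with signals of 28.6 in IMR-32, 55.9 in NGP and 11717 in the pool and ratios of -8.68 and -7.71.

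HOXB2, a hindbrain patterning gene near the other end of the cluster, had signals of 10.1 in IMR-32, 20.4 in NGP and 589 in the pool. Only the pool was bright, and the ratios were -5.86 in IMR-32 and -4.85 in NGP, or -2.71 and -2.58 with dim signals raised to the array median. HOXB7, a central gene reported at high levels in several carcinomas, was read by 3 probe sets with signals of 12.9, 45.7 and 78.2 in IMR-32, 20.6, 30.5 and 122 in NGP, and 253, 747 and 622 in the pool. The pool was highest for every probe set, and the ratios were -4.03 and -3.62. Taken from its brightest probe set alone HOXB7 had ratios of -2.99 and -2.35, which did not pass the cut-offs of that setting.

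HOXB4, known for its role in blood stem cells, separated the lines. Its signals were 163 in IMR-32, 12.1 in NGP and 246 in the pool. IMR-32 was close to the pool with a ratio of -0.60, whereas NGP was dim, with -4.34 over the pool and -3.74 over IMR-32. With dim signals raised to the array median these were -1.32 and -0.72, neither past the cut-off of that setting. HOXB9, a gene of the thoracic region, had the same order of arrays in both probe sets, with 118 and 112 in IMR-32, 74.5 and 45.5 in NGP, and 124 and 177 in the pool. Its ratio of NGP over IMR-32 was -0.98, short of the cut-off, with -0.66 and -1.29 in its probe sets. That is smaller in size than the standard deviation of 1.28 between probe sets, which does not measure variation between arrays.

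HOXB3, HOXB5 and HOXB6 passed no cut-off in the main setting. HOXB6 in NGP over the pool passed with dim probe sets left out (-4.77) and at the bottom 10% (-2.45). HOXB3 in IMR-32 over the pool passed without probe sets ending in _s_at and _x_at (-2.95). HOXB5, which takes part in the development of the enteric nervous system, had signals of 83.1 and 180 in IMR-32, 136 and 99.9 in NGP, and 245 and 303 in the pool, so that both lines lay below the pool but their order changed with the probe set. HOXB6 had 28.0 and 35.2 in IMR-32, 75.7 and 6.07 in NGP, and 82.9 and 165 in the pool, where a single probe set passed the median. The probe sets of HOXB3, a hindbrain gene, disagreed. One gave 134 in IMR-32, 27.5 in NGP and 26.3 in the pool, and the other gave 61.0, 176 and 472, so that its ratio in IMR-32 over the pool was 2.34 or -2.95 and its direction cannot be stated.

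The HOXC genes from HOXC4 to HOXC9 were bright in NGP without exception and higher there than in IMR-32. Their median ratio of NGP over IMR-32 was 1.75, and the 5 values ran from 0.07 (HOXC8, -0.01 after quantile normalization) to 1.83. Over the pool the median of these 5 genes was 1.31 in NGP and 0.35 in IMR-32. HOXC4 in NGP passed the upper cut-off over the pool with log2(signal + 32), with dim signals raised to the array median and at 10%. Each of them was read by 1 probe set, so that no spread within the gene can be given.

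HOXC4 had signals of 564 in IMR-32, 1553 in NGP and 443 in the pool. HOXC5, its neighbour with the shared promoter window shown above, had 131, 443 and 96.2. For both genes NGP was highest and IMR-32 lay near the pool. The ratios in NGP over the pool were 1.81 for HOXC4, just under the cut-off of 1.84, and 2.20 for HOXC5, just above it. HOXC5 did not pass at the top 5% or with cut-offs taken over all probe sets. In IMR-32 they were 0.35 and 0.45, and in NGP over IMR-32 they were 1.46 and 1.75.

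HOXC6 and HOXC9 showed a different order, with the pool as high as NGP. HOXC6, used at the level of the forelimb, had signals of 492 in IMR-32, 1703 in NGP and 2003 in the pool. HOXC9, a thoracic gene that has been linked to neuronal differentiation of neuroblastoma cells, had 87.0, 310.3 and 263. IMR-32 was the low array for both, with ratios over the pool of -2.03 for HOXC6 and -1.59 for HOXC9, while NGP had -0.23 and 0.24. Neither passed a cut-off over the pool in the main setting. With log2(signal + 32) HOXC6 was underexpressed in IMR-32 (-1.96). With dim signals raised to the array median both genes were (-2.03 and -1.55). For HOXC6 and HOXC9, NGP over IMR-32 was 1.79 and 1.83, short of the cut-off of 1.95. HOXC5, HOXC6 and HOXC9 all passed the upper cut-off for NGP over IMR-32 when log2(signal + 32) was used, when dim probe sets were left out, when dim signals were raised to the array median, and at the top 10%. HOXC4 passed it with log2(signal + 32) and with dim signals raised.

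HOXC8, which acts in the motor neurons of the forelimb, had signals of 161 in IMR-32, 169 in NGP and 68.1 in the pool. The ratio of NGP over IMR-32 was 0.07, and with 1 probe set and 1 array per line no spread can be set beside it. Both lines lay above the pool by 1.24 and 1.31, short of the cut-offs. HOXC8 was the HOX gene with the highest ratio in IMR-32 among the bright members.

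HOXC10, HOXC11 and HOXC13 were highest in the pool. HOXC10, a gene of the lumbar region, had signals of 79.5 in IMR-32, 58.8 in NGP and 433 in the pool, and ratios of -2.45 and -2.88, the latter equal to the cut-off at this rounding but not past it. It was underexpressed in NGP after quantile normalization (-2.79), with log2(signal + 32), with dim signals raised to the array median (-2.14), with the mean over probe sets and at 10%. In IMR-32 it was underexpressed with log2(signal + 32) (-2.06), with dim signals raised (-2.27) and at 10%. HOXC11 had 172, 134 and 251 and was bright in all arrays, with ratios of -0.55 and -0.91. HOXC13, known for its role in hair and nail, had 15.1, 17.2 and 368, so that both lines were dim. Its ratios of -4.61 in IMR-32 and -4.42 in NGP became -2.04 and -1.90 with dim signals raised to the array median, past the cut-offs of that setting.

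Directly compared, NGP and IMR-32 had about the share of HOX genes past the cut-offs that the rule sets for all genes. In NGP over IMR-32, 2 genes were overexpressed and 2 underexpressed of 28, with 7% of all genes at each end, and the median ratio was 0.22 with 16 genes above 0 (50.8% of all genes). The overexpressed genes were HOXD10 and HOXD13, and the underexpressed were HOXB4 and the dim HOXA2. The medians by cluster were -0.32 for HOXB, 0.25 for HOXC and 1.12 for HOXD.

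**Figure D3:**
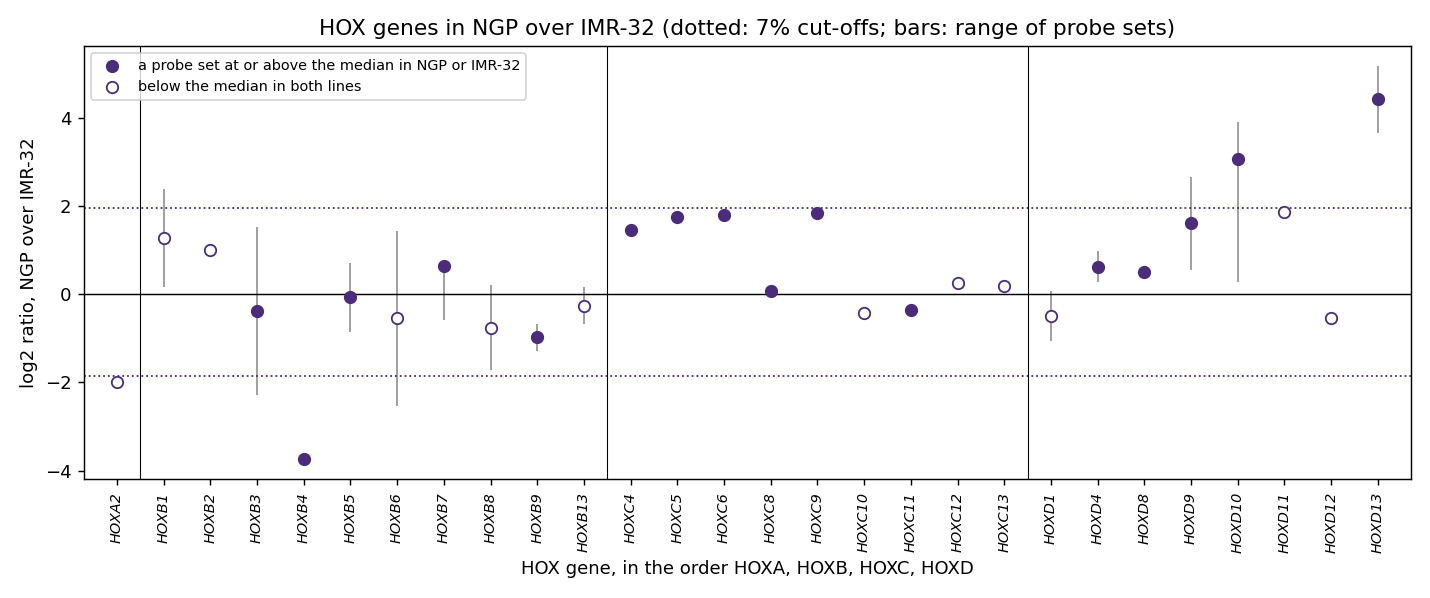
Log2 ratio of NGP over IMR-32 for each measured HOX gene, in cluster order. Dotted lines mark the 7% cut-offs of 1.95 and -1.84, and bars the range of the probe sets of a gene. HOXD10 (3.06) and HOXD13 (4.43) lie above the upper line, and HOXB4 (-3.74) lies lowest.

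Within HOXD, 6 of the 8 measured genes had a ratio of NGP over IMR-32 above 0, with HOXD4 at -0.30 when shared probe sets were added, and the dim HOXD1 and HOXD12 lay below. Of the 6 measured genes from HOXD8 to HOXD13, HOXD12 alone was not higher in NGP, where 50.8% of all genes lay above 0. HOXD11 was dim in every array, and with dim signals raised to the array median it gave 0.14, the ratio of the array medians. The 5 bright HOXD genes were all bright in NGP and 3 of them in IMR-32, HOXD10 through NGP alone. All 5 markers of mesenchymal cells were also higher in NGP than in IMR-32, with a median ratio of 1.60 and 2 past the cut-off. Their summed signal was 772 in IMR-32, 1690 in NGP and 4192 in the pool, and COL1A2 was dim in both lines. All 6 measured sympathoadrenal markers were higher in NGP too, with a median of 0.86 and 2 past the cut-off. Of the other markers, 2 of 5 epithelial, 2 of 4 haematopoietic and 3 of 4 melanocytic ones were higher in NGP. The part of these markers in the HOX ratios was not tested. HOXD13, the most posterior gene of the cluster and known for its role in digit formation, had 3 probe sets with signals of 2.42, 4.71 and 10.5 in IMR-32, 52.3, 58.9 and 382 in NGP, and 110, 103 and 350 in the pool. IMR-32 was the low array in every probe set, and NGP lay near the pool. The ratio of NGP over IMR-32 was 4.43, with single probe sets between 3.65 and 5.18, and over the pool it was -5.06 in IMR-32 and -0.80 in NGP.

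HOXD10, which acts in the motor neurons of the lumbar spinal cord, was the only HOX gene that was bright in NGP and in neither of the other arrays. Its probe sets gave 5.76, 16.7 and 3.61 in IMR-32, 48.1, 251 and 4.34 in NGP, and 5.75, 5.25 and 4.92 in the pool. The first and the second were higher in NGP, and the third was near the floor everywhere. The ratio was 3.06 over the pool and 3.06 over IMR-32, and the bright probe set alone gave 5.58 over the pool. HOXD10 and HOXD13 each had 1 probe set above the array median in NGP, and with dim signals raised to that median both gave 0.14 for NGP over IMR-32, the ratio of the array medians. In the same setting HOXD13 in IMR-32 over the pool was -0.41. With log2(signal + 32) the ratio of HOXD10 in NGP over the pool was 1.08 and did not pass.

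HOXD9 and HOXD8 lie further along the cluster. HOXD9, a gene of the lumbosacral region, had signals of 205 and 8.37 in IMR-32, 299 and 53.2 in NGP, and 113 and 26.8 in the pool. NGP was highest in both probe sets, with a ratio of 1.20 over the pool and 1.60 over IMR-32, and IMR-32 lay on either side of the pool. The second probe set was dim in every array. With dim probe sets left out, NGP over IMR-32 was 0.54, and with dim signals raised to the array median it was 0.34. HOXD8 had 582, 824 and 323. Both lines were above the pool, with ratios of 0.85 in IMR-32 and 1.35 in NGP. Neither passed a cut-off, but NGP did with log2(signal + 32) (1.27) and with dim signals raised to the array median.

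HOXD4, which acts in the hindbrain and the neck vertebrae, had signals of 32.8 and 304 in IMR-32, 39.9 and 597 in NGP, and 74.4 and 275 in the pool. Its ratios were -0.52 in IMR-32, 0.11 in NGP and 0.63 for NGP over IMR-32. A further 3 probe sets name HOXD4 together with HOXD3 and LOC401021, and these behaved otherwise. Their signals were 776, 211 and 237 in IMR-32, 628, 81.9 and 141 in NGP, and 79.9, 11.7 and 5.42 in the pool. They were higher in both lines than in the pool, with ratios of 3.28, 4.17 and 5.45 in IMR-32 and of 2.98, 2.80 and 4.71 in NGP. Which of the named genes they read cannot be told apart.

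**Figure D4:**
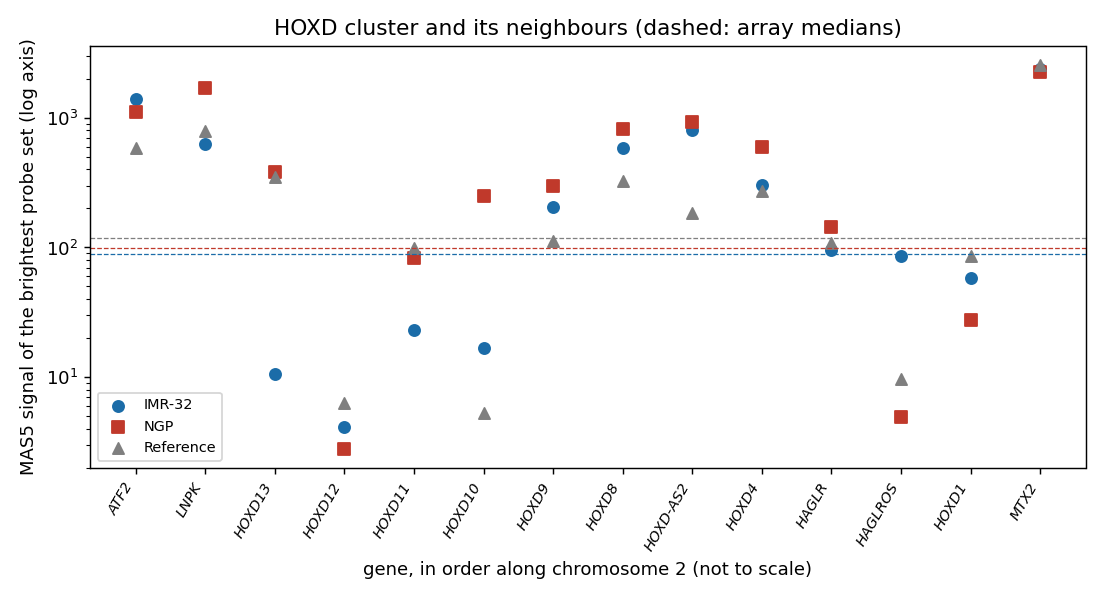
MAS5 signal (log axis) of the brightest probe set of each measured gene of the HOXD region in its order on chromosome 2, in IMR-32, NGP and the Reference pool, to be compared between arrays within a gene only. HOXD13 and HOXD10 are low in IMR-32, and ATF2, LNPK and MTX2 outside the cluster are bright in all 3 arrays.

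The transcripts around the clusters gave further values. Counts past a cut-off, here and in the lists that follow, stand beside the 7% of all genes placed at each end. Of 11 measured noncoding transcripts of the HOX clusters, 3 were overexpressed and 1 underexpressed in IMR-32, and 2 and 1 in NGP. Of the overexpressed, HOXD-AS2 alone was bright, since HOXA-AS3 (both lines) and HAGLROS (IMR-32) were dim. HOXD-AS2, an antisense transcript near HOXD8, had signals of 799 in IMR-32, 921 in NGP and 186 in the pool. It was overexpressed in both lines (2.11 and 2.31), above the ratios of HOXD8 itself. HOTAIR, a long noncoding RNA between HOXC11 and HOXC12, was read by 1 probe set with signals of 10.8, 1.27 and 173. It was underexpressed in both lines (-4.0 and -7.08), like HOXC13 at the posterior end of the same cluster. Both lines were dim, so the size of these ratios depends on dim signals.

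Of 12 measured genes that flank the clusters, 4 were underexpressed in IMR-32, and 2 were underexpressed and 1 overexpressed in NGP. Beside PRAC1, the bright ones were SKAP2, next to the HOXA cluster, with -4.64 in IMR-32 and -1.78 in NGP, and LNPK, the nearest measured gene beyond HOXD13, with -0.34 in IMR-32 and 1.86 in NGP. The ratio of NGP over IMR-32, taken as the median over its own 3 probe sets, was 1.45 for LNPK, short of the cut-off. The other measured genes flanking HOXD, ATF2 and MTX2, had -0.31 and -0.06.

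The cofactors of the HOX proteins were mostly bright and in part overexpressed. Of 8 measured genes of the TALE class, which encodes the PBX, MEIS and related proteins, 2 were overexpressed in IMR-32 and 3 in NGP, and none was underexpressed. MEIS1 had ratios of 3.17 in IMR-32 and 1.92 in NGP, and MEIS3 had 3.89 and 3.38. MEIS2 had signals of 1209 in IMR-32, 13074 in NGP and 1218 in the pool, so that it was overexpressed in NGP over the pool (3.42) and over IMR-32 (3.44) and near the pool in IMR-32 (-0.01).

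Regulators of the HOX clusters mostly passed no cut-off. Of 18 activators, 1 was underexpressed in IMR-32 and none in NGP. This was CDX2, a gut transcription factor that switches on posterior HOX genes, with a ratio of -5.30 in IMR-32 and -2.81 in NGP. In NGP over IMR-32, CDX2 (2.49) and CDX4 (2.29) were overexpressed, but each was dim in both lines. Of 15 measured Polycomb group genes, which silence HOX genes, EED alone passed a cut-off. It was overexpressed in IMR-32 over the pool (1.73) and underexpressed in NGP over IMR-32 (-2.90). Its 2 probe sets disagreed, with 0.98 and 2.48 in the former comparison and -0.94 and -4.87 in the latter. In each comparison 1 of them lay short of the cut-off.

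The labelled cell type was checked against sympathoadrenal markers. Of 6 measured, PHOX2A, HAND2 and ISL1 were overexpressed in IMR-32, and all 6 were overexpressed in NGP. PHOX2A had 3.26 in IMR-32 and 3.86 in NGP, and HAND2 had 2.50 and 2.66. TH and DBH, enzymes of catecholamine synthesis, were overexpressed in NGP (4.01 and 2.06) but had -1.40 and -0.33 in IMR-32.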

How the data were processed

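mRNA of IMR-32, NGP and the reference pool was hybridized to Affymetrix U133 Plus 2.0 arrays. The authors deposited signal intensities, made with MAS5 in the affy package of Bioconductor (version not given in the sources used here). MAS5 subtracts mismatch probe signals and scales each array on its own, so that ratios between low intensities vary more than those between high ones.

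Without 62 controls, a single gene symbol was named by 41091 probe sets, which were kept, several by 1801 and none by 11721. Gene IDs matched 41037 of the kept probe sets to the reference gene table (GRCh38.p14), the source of current symbols and gene order. Each probe set's log2 ratio was taken with no pseudocount. The members and gene lists were chosen with earlier results of these data known. HOX genes with a probe set at or above the array median are named with their signals, and dim ones by range. Of the other lists (TALE cofactors, activators, Polycomb genes, noncoding transcripts, flanking genes and cell type markers), bright genes past a cut-off are named, at most 6 per list. A further 12 alternatives to the main settings were run, and brightness was also judged at the 75th percentile and by the median probe set. Values of the mesenchymal, haematopoietic and melanocytic lists are in the closing section. Scripts were tested on simulated data and used Python 3.11.15, numpy 2.4.6, pandas 2.3.3 and matplotlib 3.10.9. Copy number and tissue data were not analysed here.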

Additional observations from a re-analysis of the deposited data

Results flagged for a closer look

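The 3 probe sets that name HOXD3, HOXD4 and LOC401021 together lie outside the values per gene. They had signals above the array median in the neuroblastoma lines but not in the pool, with 775.6, 211.5 and 236.9 in IMR-32, and 628.5 and 141.5 in NGP for the first and the third. HOXA2 lay above the pool in IMR-32 and below it in NGP, with a ratio of NGP over IMR-32 of -1.98, but all 3 signals were dim and the difference was not tested.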

How the results depend on the processing

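Under the 12 alternatives, which held from 16 to 29 HOX genes, the medians over these genes kept their sign. Over the pool the median of all genes was itself below 0, so a kept sign says little there. With dim signals raised to the array median, HOX genes and all genes had the same median over the pool (-0.41 in IMR-32, -0.27 in NGP). Without _s_at and _x_at probe sets the medians in NGP over the pool were -0.20 for HOX genes and -0.19 for all genes. Of 969 gene values, 903 kept their side of the cut-off and 41 turned sign, 16 of them with dim signals raised to the array median. With 1 array per sample no replicate could be left out. No paired analysis was possible because each group holds 1 array. For IMR-32 over the pool, the 1 overexpressed gene became 0 with log2(signal + 32), with dim probe sets left out, with dim signals raised to the array median, without probe sets ending in _s_at and _x_at, with cut-offs over all probe sets and at 5%, and 3 when shared probe sets were added. Its median of -0.57 was -0.28 after quantile normalization and -0.87 without dim probe sets. For NGP over the pool, 3 overexpressed genes became 5 with shared probe sets and 1 with cut-offs over all probe sets or at 5%. The 5 underexpressed became 3 without _s_at and _x_at probe sets. The median of -0.77 was -0.49 after quantile normalization, -0.47 with log2(signal + 32), -0.27 with dim signals raised and -0.20 without _s_at and _x_at probe sets. For NGP over IMR-32, 2 overexpressed genes became 6 with log2(signal + 32), 5 without dim probe sets, 4 with dim signals raised and 7 at 10%. The 2 underexpressed became 0 with dim signals raised and 1 with log2(signal + 32), without dim probe sets, with the brightest probe set, without _s_at and _x_at probe sets, with cut-offs over all probe sets and at 5%. The median of 0.22 was 0.59 without dim probe sets, 0.52 with the brightest probe set and 0.74 without _s_at and _x_at probe sets. At the 75th percentile 3 genes were bright in IMR-32, 4 in NGP and 4 in the pool. Among genes past a cut-off, raising dim signals to the median turned the direction of HOXB8 in IMR-32 (-0.41), of HOXB1 and HOXD10 in NGP over the pool (both -0.27) and of HOXA2 in NGP over IMR-32 (0.14), since a pair of dim signals then gives the ratio of the array medians.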

Other observations

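Markers of other cell types that the pool may hold were also measured. Of 5 mesenchymal markers, 3 were underexpressed in IMR-32 and 1 in NGP, with medians of -3.45 and -0.99. Of 4 haematopoietic markers, 1 was underexpressed in each line. Of 4 melanocytic markers, PMEL alone passed a cut-off, overexpressed in NGP (2.30).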
